A study of Homo sapiens with 4 samples.

Results

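The super elongation complex carries P-TEFb, the kinase made of CDK9 and a cyclin T, to RNA polymerase II. Its mRNAs were followed in 22Rv1 cells exposed for 12 h to 40 nM JMC45, described in the series title as a CDK9 degrader, or to the DMSO vehicle. The members were the 9 genes whose current or older symbol was AFF1, AFF4, ELL, ELL2, ELL3, EAF1, EAF2, MLLT1 or MLLT3, and all 9 were among the 63241 genes of the deposited table under their current symbols. D45, the name in the title and design text, was read as another name of JMC45. 22Rv1 is an established human line of castration-resistant prostate cancer, and all cells compared here were of that 1 line. Each group had 2 poly(A)-selected libraries, and nothing in the labels ties them to separate cultures, so the spread behind each p-value may be technical.

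In this complex AFF1 or AFF4 is the scaffold on which the other subunits assemble. The ELL proteins speed RNA chain synthesis by RNA polymerase II, the EAF proteins bind and stimulate ELL, and MLLT1 (ENL) and MLLT3 (AF9) carry a YEATS domain that reads acylated histones and tethers the complex to chromatin. AFF1, ELL, MLLT1 and MLLT3 are known as fusion partners of the MLL gene (KMT2A) in leukaemia, and ELL2 and EAF2 are known as androgen-responsive genes in the prostate.

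Levels are in TPM, which divides by gene length and by the library total, so genes can be compared with each other, but no sequencing depth is kept and it is unknown here. Libraries of 1 group correlated at r = 0.985 (JMC45) and r = 0.984 (vehicle) over the 14018 tested genes, those with a mean of at least 1 TPM. Mitochondrially encoded genes took 26.6% and 29.3% of the TPM in JMC45 libraries, against 20.4% and 20.1% in vehicle libraries. All 8 luminal prostate markers examined were present, with summed levels of 321.3 and 319.4 TPM in JMC45 libraries and 857.1 and 878.7 TPM in vehicle libraries, and the lowest mean was that of KLK3 at 11.5 TPM. Leukocyte markers summed to at most 0.16 TPM in JMC45 libraries and 1.48 TPM in vehicle libraries, endothelial markers to at most 0.01 TPM and basal markers to at most 0.33 TPM in any library, with CD3E, CDH5 and KRT5 listed at 0. The 4 fibroblast markers summed to 6.88 and 6.20 TPM in JMC45 libraries and 7.59 and 7.11 TPM in vehicle libraries, and LUM was highest, with a mean of 4.28 TPM in JMC45 and 4.00 TPM in vehicle.

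All 9 mRNAs of the complex had lower TPM in both JMC45 libraries than in either vehicle library. How many of all tested genes stood apart in this way was not counted, so this separation cannot be called particular to the complex. Their summed level was 41.96 and 37.37 TPM in JMC45 libraries, against 178.2 and 147.3 TPM in vehicle libraries, a 4.10-fold difference of the means. An exact two-sided permutation test of the sum gave p = 0.33, the smallest value that 2 libraries against 2 allow. In limma's test on log2(TPM + 1), with Benjamini-Hochberg adjustment over all 14018 genes and a threshold of 0.05, 9 of 9 fell, where 80.7% of all tested genes fell. A count of 9 of 9 is therefore near the background. The median change of the members was -1.60 on the log2 scale and that of all tested genes was -1.10. TPM is a share of the library total, so the absolute amount of an mRNA is unknown, and fell means here a lower scaled value. In these bulk libraries, fewer cells with an mRNA and less of it per cell also cannot be told apart.

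Most genes had lower TPM after JMC45, and the calls of 5 members changed with how libraries were scaled. Median-of-ratios scaling, which sets the typical gene to no change (median -0.01), left 6 of the 9 members lower, where 35.3% of all tested genes were lower. Quantile normalization left 4 of 9 lower, where 32.8% of all tested genes were lower. With mitochondrially encoded genes removed 9 of 9 were lower, beside 76.4% of all tested genes, and with their total held equal between libraries 9 of 9 were lower, beside 90.5%. ELL2, ELL3, MLLT3 and EAF1 were called lower under all 5 scalings run. AFF4 and ELL lost their call after quantile normalization, and AFF1, MLLT1 and EAF2 lost theirs under both.

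**Figure D1:**
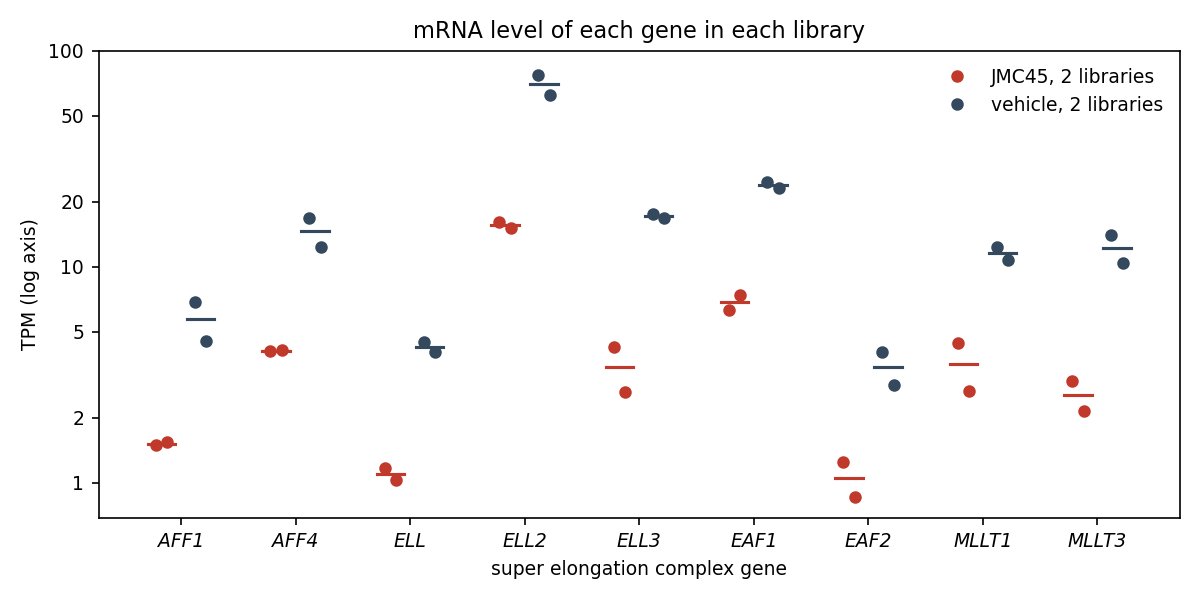
TPM on a log axis of the 9 genes of the super elongation complex in each library (points) with the mean of each group (horizontal lines), JMC45 in red and vehicle in dark blue. Every JMC45 point lies below both vehicle points of its gene. The share of all tested genes that do so was not counted, and limma called 80.7% of them lower on TPM. ELL2 is the most abundant of the 9 in both groups, with means of 15.6 TPM in JMC45 and 69.95 TPM in vehicle.

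Both scaffold genes fell on TPM. AFF4 (ENSG00000072364), the scaffold through which cyclin T1 joins the complex, was at 4.07 and 4.10 TPM in JMC45 libraries and at 16.8 and 12.3 TPM in vehicle libraries. The log2 change of AFF4 was -1.60 (SE 0.16, limma adjusted p = 0.000178), and -0.40 with median-of-ratios scaling (adjusted p = 0.0283). The JMC45 libraries were nearly equal while the vehicle libraries differed more, and the groups did not overlap.

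AFF1 (ENSG00000172493), the other scaffold, was at 1.49 and 1.54 TPM in JMC45 libraries and at 6.87 and 4.55 TPM in vehicle libraries. The log2 change of AFF1 was -1.39 (SE 0.20, limma adjusted p = 0.000775), but -0.39 with median-of-ratios scaling, which did not pass (adjusted p = 0.0635). The pattern of spread was that of AFF4, tight in JMC45 and wide in vehicle. The ratio of AFF1 to AFF4 was 0.366 and 0.376 in JMC45 libraries and 0.408 and 0.370 in vehicle libraries. A constant factor per library cannot move this ratio, but quantile normalization can. The log2 ratio differed by -0.07 between group means, with single pairs of libraries between -0.16 and 0.02, so the groups overlapped (exact two-sided permutation p = 0.67, adjusted p = 0.80 over 6 ratios).

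Among the elongation factors, ELL2 and ELL3 were called lower under all 5 scalings, and ELL under 4. ELL2 (ENSG00000118985), the most abundant member, was at 16.1 and 15.1 TPM in JMC45 libraries and at 77.6 and 62.3 TPM in vehicle libraries. ELL2 fell by 2.09 on the log2 scale (SE 0.12, limma adjusted p = 2.12e-05), by 0.77 with median-of-ratios scaling (adjusted p = 0.000491) and by 1.08 under quantile normalization (adjusted p = 0.000657). On TPM, 13.1% of all tested genes had a lower log2 change than ELL2, the largest change in the complex on that scale by a margin over ELL3 smaller than its SE. That rank depends on the pseudocount of 1. With 0.1 in its place the change of ELL2 was -2.15, behind ELL3 (-2.33) and MLLT3 (-2.22), and 24.9% of tested genes had a lower change than ELL2.

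ELL3 (ENSG00000128886), known in mouse embryonic stem cells as an enhancer-bound ELL protein, was at 4.23 and 2.62 TPM in JMC45 libraries and at 17.5 and 16.9 TPM in vehicle libraries. ELL3 fell by 2.06 on the log2 scale (SE 0.19, limma adjusted p = 0.000115) and by 0.88 under median-of-ratios scaling (adjusted p = 0.00539). As a ratio of mean TPM its decrease was 5.02-fold, the largest of the 9, against 4.50-fold for ELL2. In GENCODE release 29, 21.8% of the exonic bases of ELL3 overlap exons of PDIA3 and 14.4% overlap exons of SERF2, both on the other strand and both much more abundant. PDIA3 was at 480.3 and 480.7 TPM in JMC45 libraries and at 532.0 and 525.0 TPM in vehicle libraries, and SERF2 at 793.0 and 734.5 TPM in JMC45 libraries and at 531.6 and 606.8 TPM in vehicle libraries. The kit kept strand, but no source used here says whether the quantification used it. On its own strand ELL3 shares 54.1% of its exonic bases with the protein-coding gene AC018512.1, which was listed at 0.09 and 0 TPM in JMC45 libraries and at 0.66 and 0.49 TPM in vehicle libraries, and strand cannot separate these. The ELL3 level is uncertain on both counts.

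ELL (ENSG00000105656), the founding member of the family, was at 1.17 and 1.03 TPM in JMC45 libraries and at 4.49 and 4.01 TPM in vehicle libraries. ELL fell by 1.32 on the log2 scale (SE 0.14, limma adjusted p = 0.000236), and by 0.40 under median-of-ratios scaling (adjusted p = 0.0308). The pseudocount of 1 weighs on so low a level, and with 0.1 in its place the change of ELL was -1.86, against -2.15 for ELL2. ELL stood at 0.0729 and 0.0684 of ELL2 in JMC45 libraries and at 0.0579 and 0.0644 of ELL2 in vehicle libraries. This ratio was higher in both JMC45 libraries, by 0.21 on the log2 scale with single pairs between 0.09 and 0.33 (exact two-sided permutation p = 0.33, the smallest possible, adjusted p = 0.80). The ratio of ELL3 to ELL2 was 0.264 and 0.174 in JMC45 libraries and 0.226 and 0.271 in vehicle libraries, so its groups overlapped.

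**Figure D2:**
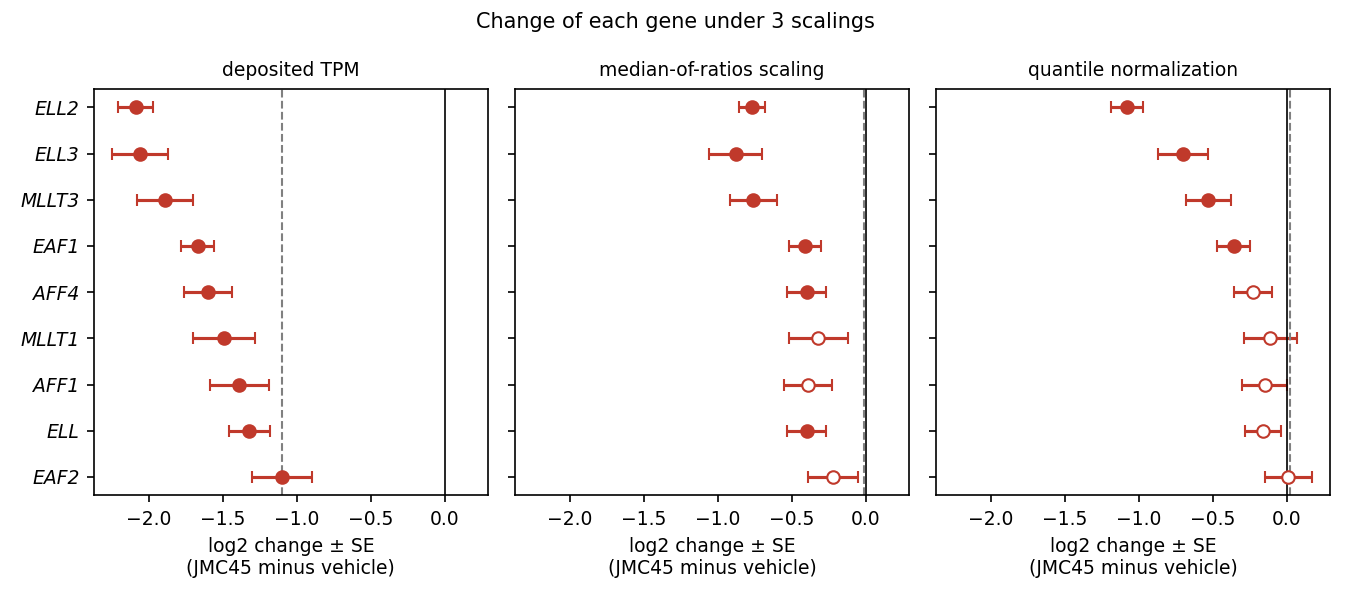
Log2 change with its standard error (JMC45 minus vehicle, 2 libraries each) of the 9 genes on deposited TPM, with median-of-ratios scaling and with quantile normalization. Filled points passed the adjusted p threshold of 0.05, open points did not, and the dashed line is the median of all tested genes, at -1.10, -0.01 and 0.02. On the rescaled axes ELL2, ELL3 and MLLT3 remain farthest to the left, and EAF2 lies closest to the dashed line.

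Of the ELL-associated factors, EAF1 was the more abundant in both groups. EAF1 (ENSG00000144597) was at 6.31 and 7.37 TPM in JMC45 libraries and at 24.7 and 23.2 TPM in vehicle libraries. EAF1 fell by 1.67 on the log2 scale (SE 0.11, limma adjusted p = 3.41e-05) and by 0.41 under median-of-ratios scaling (adjusted p = 0.0170). Unlike the AFF genes, EAF1 varied little between the vehicle libraries, and its groups did not overlap.

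EAF2 (ENSG00000145088), known as a growth suppressor in the prostate, was at 1.24 and 0.86 TPM in JMC45 libraries and at 4.03 and 2.82 TPM in vehicle libraries, the lowest mean of the 9 in both groups. Its log2 change of -1.10 (SE 0.20, limma adjusted p = 0.00222) equalled the median of all tested genes, and 49.9% of them had a lower change. That match depends on the pseudocount of 1. With 0.1 in its place the change of EAF2 was -1.61, the median of all tested genes was -1.34, and 40.8% of them had a lower change. With median-of-ratios scaling the change of EAF2 was -0.22 (adjusted p = 0.284) and with quantile normalization 0.01 (adjusted p = 0.947). EAF1 exceeded EAF2 by 5.09 and 8.57 times in JMC45 libraries and by 6.12 and 8.23 times in vehicle libraries, and the groups overlapped (single pairs from -0.69 to 0.49 on the log2 scale, exact two-sided permutation p = 1.0). That range of single pairs is wide. The exact permutation test could not pass for a shift of the EAF1 to EAF2 ratio of any size, since its smallest possible p is 0.33.

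The YEATS-domain readers were at similar levels in vehicle, with MLLT3 the lower in JMC45. MLLT3 (ENSG00000171843) was at 2.97 and 2.14 TPM in JMC45 libraries and at 13.96 and 10.5 TPM in vehicle libraries. MLLT3 fell by 1.89 on the log2 scale (SE 0.19, limma adjusted p = 0.000166), by 0.76 with median-of-ratios scaling (adjusted p = 0.00552) and by 0.53 under quantile normalization (adjusted p = 0.0261). On TPM, 18.5% of tested genes had a lower change, and 23.2% did with a pseudocount of 0.1 in place of 1.

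MLLT1 (ENSG00000130382) was at 4.43 and 2.65 TPM in JMC45 libraries and at 12.3 and 10.7 TPM in vehicle libraries. The log2 change of MLLT1 was -1.49 (SE 0.21, limma adjusted p = 0.000738), but -0.32 after median-of-ratios scaling (adjusted p = 0.181). MLLT1 stood at 1.49 and 1.24 times the level of MLLT3 in JMC45 libraries and at 0.88 and 1.03 times in vehicle libraries. The ratio was higher in both JMC45 libraries, by 0.52 on the log2 scale with single pairs between 0.27 and 0.76 (exact two-sided permutation p = 0.33, the smallest possible, adjusted p = 0.80). With 1 library left out at a time the difference ran from 0.38, without JMC45 replicate 1, to 0.65, without JMC45 replicate 2.

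The ratio of this pair stood apart between the groups but did not pass (exact two-sided permutation p = 0.33, adjusted p = 0.80). For that separation alone the promoters of the pair are shown. Both come from RefSeq on GRCh38.p14 and are read on the minus strand, MLLT1 over chr19:6279976-6280225 and MLLT3 over chr9:20622544-20622749, each from 250 bases before the start, MLLT3 only as far as the first annotated coding-gene exon. Capitals mark matches, on either strand, to the CCAAT box (CCAAT), the GC box (GGGCGG) and the E-box (CACGTG). The TATA box (TATAAA), the ETS core (CCGGAAG) and the cyclic AMP response element (TGACGTCA) were also searched and did not match either stretch.
MLLT1: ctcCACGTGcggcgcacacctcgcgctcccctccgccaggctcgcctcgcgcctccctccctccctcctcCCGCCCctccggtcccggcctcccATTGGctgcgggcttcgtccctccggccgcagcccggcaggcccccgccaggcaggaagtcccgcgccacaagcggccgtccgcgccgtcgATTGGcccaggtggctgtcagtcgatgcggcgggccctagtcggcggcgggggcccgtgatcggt
MLLT3: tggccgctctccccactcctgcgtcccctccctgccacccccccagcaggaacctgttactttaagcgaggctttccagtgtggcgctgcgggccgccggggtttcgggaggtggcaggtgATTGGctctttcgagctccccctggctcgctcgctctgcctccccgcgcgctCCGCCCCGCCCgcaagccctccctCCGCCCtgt

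The MLLT1 stretch holds 2 CCAAT boxes, 1 GC box and 1 E-box, and the MLLT3 stretch 1 CCAAT box and 3 GC boxes, of which 2 adjoin with 1 shared base. RefSeq promoters were matched for 8 of the 9 members, with 9 windows of 250 bases because AFF1 has 2. A GC box was in 8 of these 9 windows and in 42.6% of all 35116 promoters of the table. A CCAAT box was in 6 of 9 windows and in 32.0% of all, and an ETS core was in 2, those of EAF1 and EAF2, and in 8.52% of all. The E-box was in the AFF4 and MLLT1 windows and in 6.34% of all, and no member window held a TATA box, which 10.7% of all did. The share of G and C in the member windows ran from 59.6% for EAF1 to 77.2% for MLLT1, and the median of all promoters was 58.0%. These matches describe letters in a window and say nothing about binding.

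**Figure D3:**
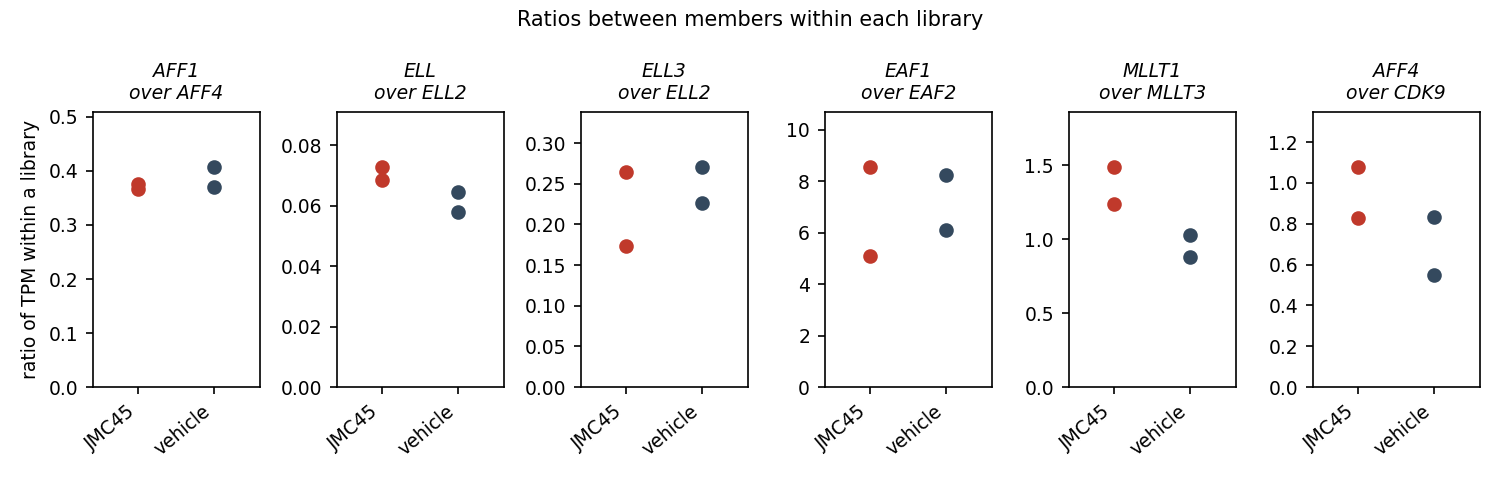
Ratio of TPM between 2 genes within each library, with the JMC45 libraries on the left in red and the vehicle libraries on the right in dark blue, on linear axes that start at 0. The groups stand apart for ELL over ELL2 (0.0729 and 0.0684 in JMC45, 0.0579 and 0.0644 in vehicle). They also stand apart for MLLT1 over MLLT3 (1.49 and 1.24 in JMC45, 0.88 and 1.03 in vehicle), and they overlap in the other panels. Neither separation passed (exact two-sided permutation p = 0.33, the smallest possible).

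Within the complex the order of levels was much the same in both groups. ELL2 led in each, at 39.3% ± 1.45 (SD, n = 2) of the summed TPM of the 9 genes in JMC45 and 42.9% ± 0.865 in vehicle, and EAF1 came next at 17.4% ± 3.31 in JMC45 and 14.8% ± 1.36 in vehicle. At the low end AFF1, ELL and EAF2 took 3.84%, 2.77% and 2.63% in JMC45, against 3.47%, 2.62% and 2.09% in vehicle. AFF4, MLLT1, ELL3 and MLLT3 lay between, and in JMC45 the libraries of each of these overlapped those of the next in order down to MLLT3, although AFF4 lay above MLLT3 in both libraries. In vehicle ELL3 came next after EAF1, its libraries above those of AFF4, whereas in JMC45 its mean lay below those of AFF4 and MLLT1. The shares of ELL2 and MLLT3 were lower in both JMC45 libraries and those of AFF4, ELL and EAF2 higher, whereas those of AFF1, ELL3, EAF1 and MLLT1 overlapped. Shares of a sum are tied to each other, so these differences are not independent. With ELL2 left out of the sum the difference for ELL reversed, to -0.0255 percentage points. An exact two-sided permutation test gave at best p = 0.33 for a share (adjusted p = 0.60 over 9 shares).

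Spread between libraries of 1 group was part of each of these values. All 9 members were higher in vehicle replicate 1 than in vehicle replicate 2, by 0.05 (ELL3) to 0.50 (AFF1) on the log2(TPM + 1) scale, with a median of 0.31. Over all tested genes 70.2% were higher in vehicle replicate 1, with a median difference of 0.09. Between the JMC45 libraries the members ran from -0.20 for EAF1 to 0.57 for MLLT1, with 6 of 9 higher in replicate 1. That count is near the background, since 59.3% of all tested genes were higher in JMC45 replicate 1, with a median difference of 0.04. On TPM the smallest change between groups, -1.10 for EAF2, was larger in size than any of these differences between replicates. That change equalled the median of all tested genes. With median-of-ratios scaling the change of EAF2 was -0.22 and with quantile normalization 0.01. The replicate differences were not computed on those scales, so the comparison holds for TPM only.

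The members range from short to very long genes. In GENCODE release 29, ELL3 spans 4.94 kb and EAF1 23.3 kb, while AFF1 spans 206 kb and MLLT3 281 kb. Over 11570 tested protein-coding genes the median log2 changes of 5 equal groups by span, shortest first, were -1.11, -1.19, -1.21, -1.19 and -0.98. ELL3 and MLLT3, at opposite ends of this range, lay 0.95 and 0.91 below the median of their span group, and ELL2, at 77.0 kb, also lay 0.91 below its own. EAF2 lay 0.08 above.

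Of the 18 genes next to a member in the RefSeq order, 8 were tested on TPM, of which 5 fell, 1 rose and 2 did not pass, where 80.7% of all tested genes fell and 4.25% rose. Beside ELL, FKBP8, a mitochondrial FK506-binding protein, was at 110.8 and 102.9 TPM in JMC45 libraries and at 100.7 and 114.6 TPM in vehicle libraries, and its log2 change of -0.01 did not pass (limma adjusted p = 0.928). ISYNA1, the inositol phosphate synthase on the other side of ELL, changed by -0.26 (adjusted p = 0.0721). Beside ELL3, SERF2 rose by 0.43 on TPM (adjusted p = 0.00334) and PDIA3 changed by -0.14 (adjusted p = 0.0486). METTL6, a tRNA methyltransferase whose exons overlap those of EAF1 on the other strand over 9.36% of the exonic bases of EAF1, fell by 2.15, more than EAF1 on that scale. Also on the other strand, EAF1-AS1 overlaps 29.1% of the exonic bases of EAF1 and COLQ 8.97%. Because of these overlaps the EAF1 level is uncertain if strand was not used. IQCB1, a cilium gene beside EAF2, fell by 1.81, CAST, the calpain inhibitor beside ELL2, by 0.88, and LEAP2, an antimicrobial peptide gene beside AFF4, by 0.72. These directions depended on scaling. With median-of-ratios scaling METTL6 was at -0.93 and IQCB1 at -0.55, LEAP2 was at -0.06, and CAST at 0.44, PDIA3 at 1.22, ISYNA1 at 1.06, FKBP8 at 1.34 and SERF2 at 1.79. The pseudogenes AFF4P1, ELL2P1, ELL2P2, ELL2P3 and ELL2P4 were listed at 0 in all 4 libraries, and the antisense gene EAF1-AS1 was at most at 0.49 TPM.

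By the distance of log2(TPM + 1) over the 4 libraries, among 10535 other protein-coding genes, TMEM39A lay nearest to AFF4 (distance 0.0344), CNOT2 to ELL2 (0.135) and ZNF12 to MLLT3 (0.155). TMEM39A was at 4.05 and 4.22 TPM in JMC45 libraries and at 16.9 and 12.3 TPM in vehicle libraries. The likeness is one of level and change only, over 4 libraries. The nearest genes to the other members were UBN2 (AFF1), PLAGL1 (ELL), LMBR1L (ELL3), LIG3 (EAF1), SORBS2 (EAF2) and PEX14 (MLLT1).

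The counts for the partners of the complex are to be read against all tested genes, of which 80.7% fell on TPM and 35.3% were lower with median-of-ratios scaling. In P-TEFb 3 of 3 genes fell on TPM, near that background (median -1.75, which is -0.65 against that of all tested genes), and 2 of 3 were lower after median-of-ratios scaling. CDK9 was at 4.93 and 3.78 TPM in JMC45 libraries and at 20.2 and 22.5 TPM in vehicle libraries, a log2 change of -2.06, and its cyclin partners CCNT1 and CCNT2 had changes of -1.75 and -0.93. AFF4 stood at 0.826 and 1.08 times CDK9 in JMC45 libraries and at 0.835 and 0.548 times in vehicle libraries, and the groups overlapped (exact two-sided permutation p = 0.67). The 4 genes of the 7SK particle, which holds P-TEFb inactive, were lower under both scalings, with medians of -2.75 before and -1.86 after median-of-ratios scaling. MEPCE, the enzyme that caps 7SK RNA, fell by 4.62 on TPM, and the P-TEFb inhibitors HEXIM1 and HEXIM2 had log2 changes of -2.90 and -2.59. HEXIM2 was at 0.14 and 0.18 TPM in JMC45 libraries, where the pseudocount of 1 weighs most. With 0.1 in its place the change of HEXIM2 was -4.55, against -3.43 for HEXIM1. The median of the 4 genes was then -3.99, beside -1.34 for all tested genes. LARP7, the 7SK-binding protein of that particle, was at 9.77 and 10.5 TPM in JMC45 libraries and at 54.9 and 45.7 TPM in vehicle libraries (log2 change -2.20). The members of the super elongation complex had medians of -1.60 and -0.40 on the same scales, and the difference between the lists was not tested.

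The little elongation complex, which shares ELL and EAF proteins and serves small nuclear RNA genes, is scaffolded by ICE1. All 3 of its genes fell on TPM, where 80.7% of all tested genes did (median -1.66), and 2 were lower after median-of-ratios scaling, where 35.3% of all were and the median of the 3 was -0.43. ICE2 was at 6.71 and 6.53 TPM in JMC45 libraries and at 26.7 and 23.5 TPM in vehicle libraries (log2 change -1.77), and ZC3H8 fell by 1.66. ICE1 was at 2.58 and 2.80 TPM in JMC45 libraries and at 10.5 and 7.68 TPM in vehicle libraries, and its call was lost after median-of-ratios scaling (-0.31, limma adjusted p = 0.0797).

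AFF3, a relative of the scaffolds, was at 15.0 and 16.8 TPM in JMC45 libraries and at 36.2 and 28.9 TPM in vehicle libraries. It fell by 0.98 on TPM, less than the median gene, and was higher after median-of-ratios scaling (0.32, limma adjusted p = 0.0386). AFF2 was under the level tested, at 0.26 and 0.33 TPM in JMC45 libraries and 0.21 and 0.17 TPM in vehicle libraries. DOT1L, a histone H3 lysine methyltransferase, also binds MLLT1 and MLLT3. In its list with MLL partners 6 of 6 fell on TPM, where 80.7% of all tested genes did. The list median of -0.86 was a smaller decrease than the -1.10 of all tested genes. Under median-of-ratios scaling 1 was lower, where 35.3% of all tested genes were, and 4 were higher, where 35.5% were. MEN1, the menin gene and the one that was lower under both, was at 4.97 and 4.21 TPM in JMC45 libraries and at 30.8 and 30.96 TPM in vehicle libraries. DOT1L fell by 0.82 on TPM and was 0.39 higher after median-of-ratios scaling, and KMT2A fell by 1.38 and was at -0.11 there. PSIP1, a chromatin tether of menin and MLL, fell by 0.89 on TPM and was at 0.46 after that scaling.

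Both other YEATS-domain genes fell on TPM, where 80.7% of all tested genes did. After median-of-ratios scaling 1 of them was lower, where 35.3% of all tested genes were. YEATS4, a subunit of histone acetyltransferase and remodelling complexes, was at 8.35 and 7.50 TPM in JMC45 libraries and at 63.7 and 64.7 TPM in vehicle libraries, with log2 changes of -2.87 before and -1.58 after median-of-ratios scaling. YEATS2 fell by 1.35 on TPM and was at -0.17 after median-of-ratios scaling (limma adjusted p = 0.185). Among 8 genes that recruit the complex or turn it over, 8 fell on TPM (median -2.04), beside 80.7% of all tested genes, and 6 were lower after median-of-ratios scaling, beside 35.3%. LEO1, PAF1 and RTF1, subunits or partners of the PAF1 complex to which MLLT1 and MLLT3 bind, had log2 changes of -3.12, -2.58 and -2.32. SIAH1, a ubiquitin ligase known to mark ELL2 for degradation, was at 4.73 and 3.62 TPM in JMC45 libraries and at 24.4 and 24.3 TPM in vehicle libraries (log2 change -2.30).

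Genes that depend on the complex in other cells, such as MYC, heat shock and immediate early genes, went both ways. Of 6 such genes 3 fell, 2 rose and 1 did not pass on TPM, where 80.7% of all tested genes fell and 4.25% rose. Under median-of-ratios scaling 3 were lower and 3 higher, and under quantile normalization 2 were lower and 3 higher, where 33.6% of all tested genes were higher. MYC was at 15.2 and 13.9 TPM in JMC45 libraries and at 100.4 and 93.3 TPM in vehicle libraries (log2 change -2.65). HSPA1B fell by 2.49 and HSPA1A by 1.67, values that are uncertain because these heat shock genes are near-identical copies. FOS was at 6.43 and 7.36 TPM in JMC45 libraries and at 1.84 and 1.68 TPM in vehicle libraries (log2 change 1.51, limma adjusted p = 0.000115) and was higher under every scaling run. The rise of EGR1 (0.63, limma adjusted p = 0.00281) lost its call when the mitochondrially encoded total was held equal, where 1.29% of all tested genes were higher. JUN, at 13.2 and 12.4 TPM in JMC45 libraries and 11.3 and 11.4 TPM in vehicle libraries, did not pass on TPM (adjusted p = 0.172). JUN was called higher with median-of-ratios scaling (1.41, limma adjusted p = 8.03e-05) and quantile normalization (1.45, adjusted p = 0.000222). With mitochondrially encoded genes removed it was also called higher (0.30, adjusted p = 0.0273). With their total held equal it was at -0.27 and did not pass (adjusted p = 0.0859).

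**Figure D4:**
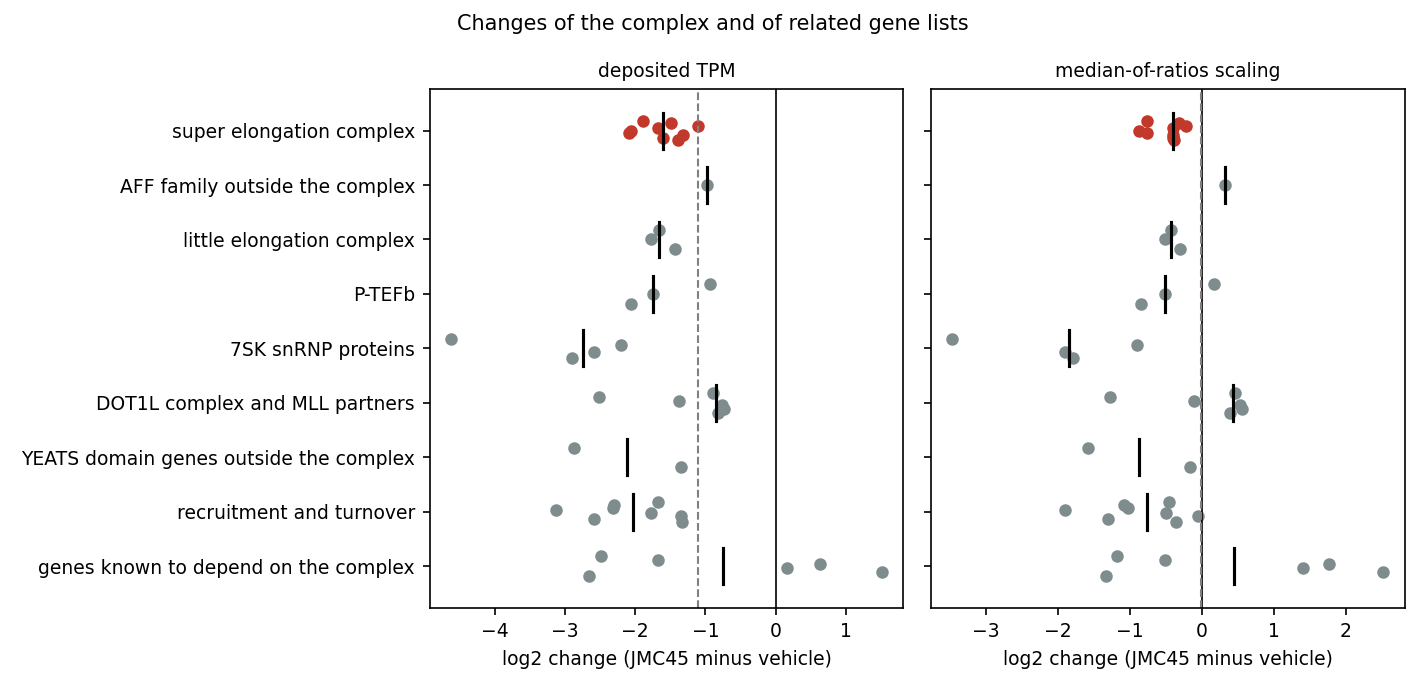
Log2 changes (JMC45 minus vehicle) of single genes (points) and list medians (short vertical lines) on deposited TPM and with median-of-ratios scaling, with the super elongation complex in red, and the median of all tested genes dashed at -1.10 and -0.01. The complex lies close to the little elongation complex and P-TEFb, with medians of -1.60, -1.66 and -1.75 on TPM, and the 7SK proteins lie farther left at -2.75.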

How the data were processed

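Each deposited value is the TPM of 1 gene in 1 library, per the file headers. Per the submitters' processing notes the authors used fastp, HISAT2 and StringTie. What each tool did, its version, the genome build and the annotation were not given in the sources used here. Of 63291 lines, 50 held no values and were left out, and 62666 of 63241 genes were matched to a symbol. Depth is unknown, so no counting interval is given.

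Values were tested as log2(TPM + 1), which understates changes of low genes, for 14018 genes whose mean over the 4 libraries was 1 TPM or more. Groups were compared with limma 3.58.1 (R 4.3.3) in a two-sided test with an intensity trend and no replicate block. Ratios and shares were tested by exact permutation of libraries. Summaries used Python 3.11.15, pandas 2.3.3, numpy 2.4.6, scipy 1.17.1 and matplotlib 3.10.9.

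Alternatives were other pseudocounts, filters and scalings, no trend, a replicate block and each library left out. Named were all members, up to 4 genes of each related list with the largest changes past the threshold, tested neighbours and, for each member, its nearest gene by level. CCNT2, AFF2, ICE1, YEATS2, EGR1 and JUN complete short lists. The members and lists were chosen with earlier results of these data known, and 1 gene of the recruitment and turnover list is not reported here and was left out of its counts and median.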

Additional observations from a re-analysis of the deposited data

How the results depend on the processing

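The members were called lower in every setting that left a library out, used no intensity trend, used another pseudocount or filter, or changed the mitochondrial scaling, apart from AFF1, ELL and EAF2 at a mean TPM of at least 5, where they were not tested. The calls of AFF1 (-0.39), EAF2 (-0.22) and MLLT1 (-0.32) were lost with median-of-ratios scaling. With quantile normalization those of AFF1 (-0.15), AFF4 (-0.23), ELL (-0.16) and MLLT1 (-0.11) were lost, EAF2 turned to 0.01, and 4 members remained called lower. These scalings set the typical gene near 0 by construction. Over all genes they called 4944 and 4603 lower and 4982 and 4716 higher, against 11311 lower and 596 higher on TPM, and 181 were higher when the mitochondrially encoded total was equalised.

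Of the related lists, AFF3 turned to 0.32 under median-of-ratios scaling and 0.19 under quantile normalization (0 called lower in each, 1 called higher in the first). CCNT2 turned to 0.17 and 0.40, DOT1L to 0.39 and 0.55, MLLT6 to 0.55 and 0.49, and MLLT10 to 0.53 and 0.49, in the same order. PSIP1 turned to 0.46 under median-of-ratios scaling, YEATS2 to 0.02 under quantile normalization, and JUN to -0.27 with the mitochondrially encoded total equalised. In the DOT1L list 1 gene was lower in each scaling and 4 and 3 were higher. Of the other YEATS genes 1 was lower in each, and after quantile normalization 1 gene of P-TEFb was higher. Of the genes that depend on the complex, 1 rose at a mean TPM of at least 5 and 1 with that total equalised.

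Computed on TPM + 1, the differences of the log2 ratios were 0.20 for AFF1 over AFF4, 0.77 for ELL over ELL2 and -0.57 for EAF1 over EAF2, against 0.40 for MLLT1 over MLLT3, since the pseudocount shrinks low genes most. In the summed TPM without ELL2, the share of ELL differed by -0.0255 percentage points, the reverse of 0.151 with ELL2 included. Without ELL2 the share of ELL3 differed by -4.60 and that of MLLT3 by -2.56.

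The labels give libraries of both groups matching numbers and do not say whether same-numbered libraries were prepared as pairs. The deviations of same-numbered libraries from their group means correlated at -0.0471 over genes. With so few libraries per group, this value cannot show whether they were paired. With the replicate block 613 genes were higher and 11380 lower, and all 9 members stayed called lower. The low levels of EAF2, ELL and AFF1 limit the precision of their ratios.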
